A study of Homo sapiens with 36 samples.

Results

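Interleukin-1β (IL-1β) was given to A549 cells and then taken away, and the quantity described here is how far the response to it had changed by the last collection. A549 is an established epithelial line from a human lung adenocarcinoma. The study used it to ask which features of chronic inflammatory exposure, epithelial-to-mesenchymal transition (EMT) among them, outlast the cytokine. Cells in RPMI medium with serum received IL-1β at 1 ng/ml or none and were split every few days. Of 36 RNA-seq libraries, 12 enter the comparison, 3 in each of 4 groups. The groups were control cells and IL-1β cells at day 21 of exposure, and control cells and formerly exposed cells at day 30 posttreatment, that is after withdrawal. The response is the log2 ratio of IL-1β cells to the control cells of the same collection, and the difference of responses is the response at day 30 after withdrawal minus the response at day 21. A negative difference therefore means that the level in IL-1β cells fell relative to control once the cytokine was gone. All 4 groups are the same line, so the values describe 1 culture model and carry no information on other cells.

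IL-1β binds its receptor on epithelial cells and, through MYD88 and IRAK kinases, activates NF-κB and the MAPK pathways that feed the AP-1 transcription factors. These switch on chemokines that draw in leukocytes, acute phase and prostaglandin genes, and a set of inhibitors that close the pathway again. In lung epithelium, prolonged exposure to inflammatory cytokines is known to lower junction genes and raise mesenchymal ones. Many of the immediate targets need the cytokine to stay on, whereas changes of cell state may outlast it.

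The 12 libraries held 10014699 to 23570026 counts on genes. KRT7, KRT8, KRT18 and CDH1, epithelial genes, were expressed in all 12, while EPCAM lay between 0.257 and 1.36 CPM, the gene's counts scaled to a common effective library size, and KRT19 had 3 or fewer counts in 11 of the 12. PTPRC, CD3E and FCGR3A of leukocytes, CDH5, VWF, KDR and TEK of endothelium, and COL3A1, LUM and THY1 of fibroblasts had 3 or fewer counts in all 12. Other genes of these lists were detected, with more than 3 counts of CD14 (1.30 to 8.77 CPM) and ITGB2 (1.80 to 11.4 CPM) in every library, of LYZ in all but 1, and of CLDN5 and DCN in all but 5. ITGB2 averaged 4.01 CPM in control and 3.38 CPM in IL-1β cells at day 21, and 3.53 and 8.51 CPM at day 30. The second replicates of 3 groups stood apart by their mitochondrial share, at 11.8% for IL-1β at day 21, 23.2% for control at day 30 posttreatment and 12.2% for IL-1β at day 30 posttreatment, against 5.61% to 7.75% in the other 9. In bulk RNA, fewer cells expressing a gene and less RNA of it per cell cannot be told apart.

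Of 19180 genes tested, 120 (0.626%) changed their response, at an adjusted p under 0.05 and a difference over 1 on the log2 scale (edgeR quasi-likelihood test, Benjamini-Hochberg adjustment). The response fell for 57 genes (0.297%) and rose for 63 (0.328%), and the median difference over all tested genes was 0.01. CXCL8, CXCL1, SAA2, PTGS2 and CCL2 had the largest falls, and H19, DEFB1, RTN4RL2, KRT4 and FGL1 the largest rises. All 120 had the same sign in the pairs of libraries numbered 1, 2 and 3, as did 6426 of the 19180, but the calls were made on these libraries, so this is no separate support. Same-numbered control and IL-1β libraries deviated together, and a fit with a term for each replicate number within each collection called 241 genes, 117 of the 120 among them. Once every library of the 36 with over 10% mitochondrial counts was dropped, these 3 and others outside the contrast, 172 genes passed, 98 of the 120 among them. Leaving out the third control library of day 21 gave 71 calls, and leaving out the first IL-1β library of day 21 or the third IL-1β library of day 30 gave 79 each. At the limit on size, P3H2 (1.01), CDON (1.03) and DOCK4 (-1.03) lay just inside, and EPB41L1 (0.99), SVIL (-0.98) and MICAL2 (-0.97) lay just outside.

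Most of the change lay in the IL-1β cells. Between day 21 and day 30 posttreatment, 110 of the 120 genes passed the same test within IL-1β cells alone (710 of all tested genes, 3.70%), each in the direction of its difference. Of these 57 were higher after withdrawal (background 2.03%) and 53 lower (1.67%). In control cells over the same interval, 0 of 19180 genes passed by edgeR's quasi-likelihood test (0%), although 1520 had an unadjusted p under 0.05, 25 of them among the 120. DESeq2 called 10 genes and edgeR's likelihood ratio test 8 in that control comparison. The median absolute change of the 120 was 2.01 in IL-1β cells and 0.33 in control cells on the log2 scale. Over all tested genes these medians were 0.25 and 0.24. The change was larger in IL-1β cells for 116 of the 120, the exceptions being CNNM1, COL1A1, LTBP1 and POLN, and for 9991 of all 19180. The 120 were called on these same libraries, so the split between arms is a description. Control changes were widest for FGA (1.27), COL1A1 (1.23), C5 (1.21) and IL32 (-1.19).

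**Figure D1:**
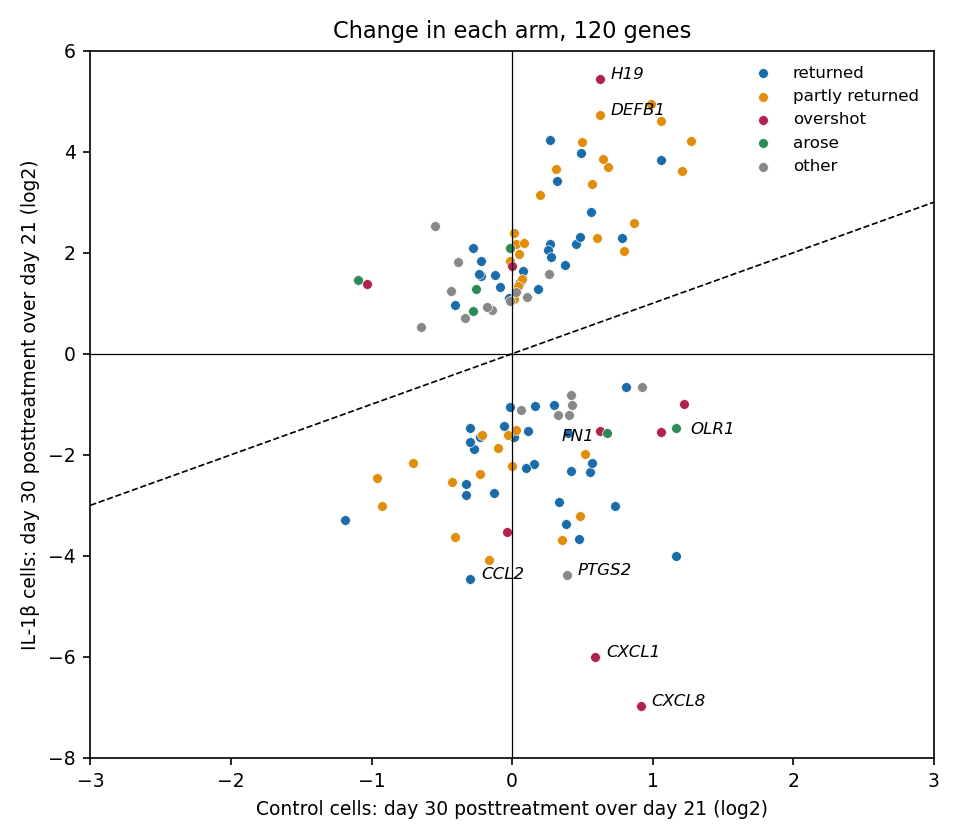
Change from day 21 to day 30 posttreatment in control cells (horizontal, log2) against the change in IL-1β cells (vertical, log2) for the 120 genes, 1 point a gene, coloured by class; the dashed line marks equal change. Nearly all points lie farther from 0 on the vertical axis, from -6.96 for CXCL8 to 5.43 for H19.

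The 120 genes were sorted by where they had been at day 21 and where they stood at day 30 after withdrawal. Day 21 responses past both thresholds were found for 96 of them (background 4.26% of tested genes), 48 higher (2.19%) and 48 lower (2.06%) than control. Among these, 50 had returned, that is their day 30 response lay within 0.5 (log2) of control, 37 had partly returned on the same side of control, and 9 had overshot to the other side by more than 0.5. A gene was classed as reversed only if it was past both thresholds on opposite sides of control at day 21 and day 30. No overshot gene passed on the opposite side at day 30, so this class was empty in the unpaired edgeR quasi-likelihood fit. Sign changes short of those thresholds did occur. No gene was enlarged. In each of 3 fits with a replicate block, 2 genes reversed, CXCL1 and PTGS2. For 6 genes the response arose after withdrawal, with a day 30 response past both thresholds and none at day 21, and 18 passed at neither collection. Day 30 responses passed for 16 of the 120 in all, against 172 of all tested genes (0.897%). These classes describe the same libraries that gave the calls and support nothing by themselves.

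**Figure D2:**
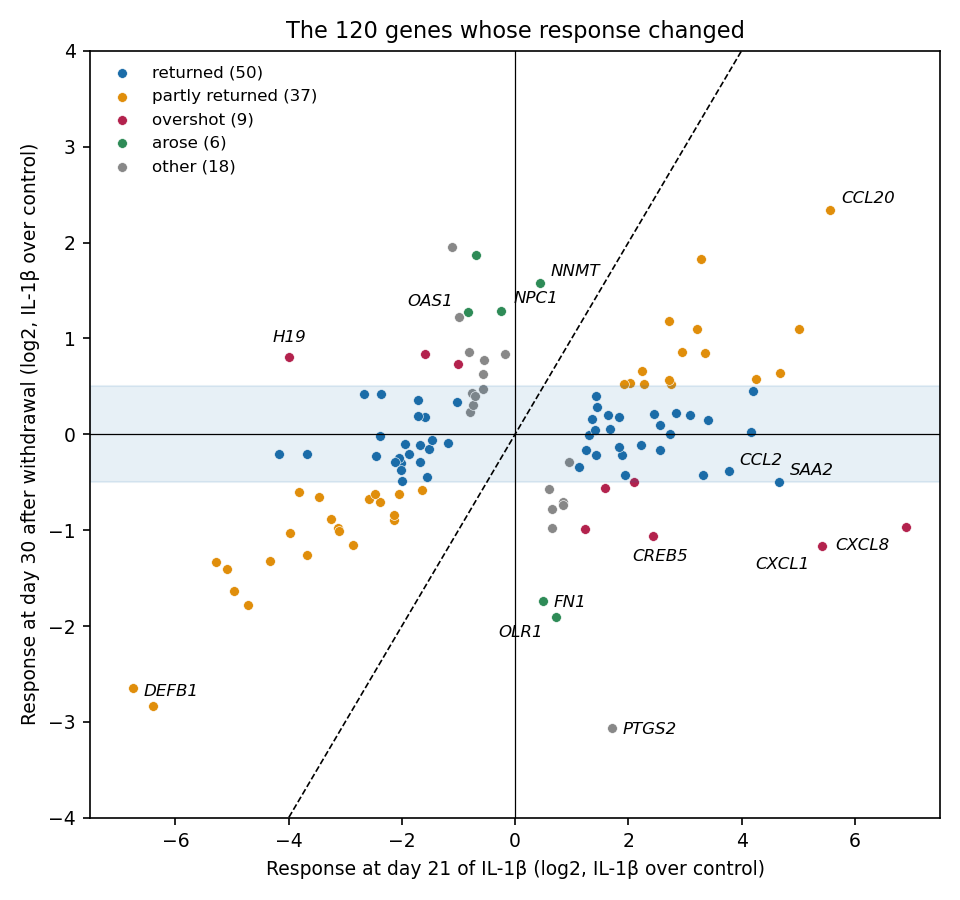
Response at day 21 (horizontal, log2 of IL-1β over control) against the response at day 30 after withdrawal (vertical, log2, on a narrower scale) for the 120 genes, coloured by class with the number of genes in brackets. The shaded band marks day 30 responses within 0.5 of control and the dashed line an equal response at both collections; CXCL8 moved from 6.91 to -0.97.

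Neutrophil-attracting chemokines fell most, CXCL8 and CXCL1 having the 2 largest falls of all. Of 12 chemokines tested, 7 fell and 1 rose, against 0.297% and 0.328% of all genes, with a median difference of -2.73 against 0.01. CXCL8 (interleukin-8) stood at 0.570, 0.845 and 0.677 CPM in control cells and 88.7, 69.2 and 95.7 CPM in IL-1β cells at day 21, and at 0.699, 2.19 and 1.38 CPM and 0.747, 0.780 and 0.514 CPM at day 30 posttreatment. The groups were far apart at day 21 and overlapped at day 30. Its difference of responses was -7.88 ± 0.64 (SE, n = 3 libraries a group, edgeR adjusted p = 7.89e-09). CXCL1, a chemokine of the same receptor, went from 2.22, 1.87 and 2.79 CPM in control and 84.5, 85.2 and 129 CPM in IL-1β cells at day 21 to 2.96, 3.99 and 3.64 and 1.43, 1.17 and 2.01 CPM. At day 30 all 3 formerly exposed libraries lay below all 3 controls, the reverse of day 21. The difference for CXCL1 was -6.59 ± 0.43 (SE, edgeR adjusted p = 9.27e-11).

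Other members of this cluster on chromosome 4 overlapped their controls at day 30. CXCL2 read 57.2, 53.7 and 50.8 CPM with IL-1β against 2.96, 3.02 and 2.79 CPM in control at day 21, and 4.34, 5.07 and 6.13 against 3.71, 3.22 and 4.38 CPM at day 30. CXCL3 gave 67, 62.4 and 46.3 against 3.02, 3.50 and 3.27 CPM and later 3.19, 3.97 and 6.59 against 4.25, 4.63 and 4.77 CPM. For CXCL5 the values were 1487, 1060.2 and 1393 against 250.1, 226 and 242 CPM at day 21 and 206, 168 and 291 against 179, 211 and 182 CPM at day 30. In each of the 3 genes IL-1β and control libraries were separate at day 21 and overlapped at day 30. Their differences were -3.76, -4.14 and -2.24, with SE of 0.33, 0.43 and 0.33 (edgeR adjusted p = 2.61e-08, 8.96e-07 and 0.000204). The 5 genes lie within GRCh37 chr4:74606236-74964913, with CXCL8 and CXCL1 on the plus strand and CXCL5, CXCL3 and CXCL2 on the minus strand. CXCL1, CXCL2 and CXCL3 are close paralogs, and how reads shared between them were split is not known.

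CC chemokines and CXCL16 behaved less alike. CCL2, which attracts monocytes, stood at 2.56, 2.96 and 2.55 CPM in control and 29.4, 41.2 and 39.9 CPM in IL-1β cells at day 21, then at 2.04, 3.60 and 1.28 and 1.36, 2.60 and 1.12 CPM. The day 30 groups overlapped, and the difference was -4.15 ± 0.58 (edgeR adjusted p = 0.000129). CCL20, which attracts lymphocytes and dendritic cells to mucosa, fell by 3.23 on the log2 scale but kept a day 30 response of 2.34 (edgeR adjusted p = 0.0143). It was at 2.10, 1.30 and 0.748 CPM in formerly exposed cells against 0.215, 0.386 and 0.246 CPM in control, with no overlap. CXCL16, a membrane-bound chemokine, was the 1 that rose, by 1.90 ± 0.45, having been lower than control at day 21 (-1.71).

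The κB motif, GGG followed by any 2 bases and TTTCC on either strand, bound by NF-κB proteins, was searched in RefSeq promoters of GRCh38.p14 that run from 250 bases before to 50 bases after the transcription start. Among genes higher at day 21 whose response fell, 10 of the 38 with a promoter in the table held it (26.3%), against 323 of 11641 tested genes (2.77%), 15 of 262 genes that were higher at day 21 without a called difference (5.73%) and 1 of 34 genes that were lower at day 21 and rose (2.94%). Such a match is a description of letters and not evidence of binding. Windows before the start are shown for 7 of the 10, the CXC chemokines and the members of the NF-κB list, 5′ to 3′ on the gene's strand with the κB match in capitals. The 3 not shown are CCL20, IL32 and TNFRSF9.
CXCL1, chr4:73869299-73869338, plus strand: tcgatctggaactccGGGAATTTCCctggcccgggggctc
CXCL2, chr4:74099249-74099288, minus strand: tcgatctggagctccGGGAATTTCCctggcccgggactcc
CXCL3, chr4:74038744-74038783, minus strand: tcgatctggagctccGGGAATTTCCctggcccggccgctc
CXCL5, chr4:73998744-73998783, minus strand: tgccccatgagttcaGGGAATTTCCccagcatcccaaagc
TNIP1, chr5:151081052-151081091, minus strand: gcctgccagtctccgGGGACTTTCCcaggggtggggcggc
NFKBIZ, chr3:101827752-101827791, plus strand: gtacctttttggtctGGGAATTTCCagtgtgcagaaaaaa
TNFAIP3, chr6:137867177-137867216, plus strand: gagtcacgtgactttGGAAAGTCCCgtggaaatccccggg
The 4 chemokines shown and NFKBIZ carry the same 10 letters, and in CXCL1, CXCL2 and CXCL3 most of the flanking letters are shared as well. Of the 3 genes not shown, TNFRSF9 carries these 10 letters too, and CCL20 and IL32 carry others. In TNFAIP3 the match reads on the opposite strand, and a further match lies just downstream of it.

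Promoters of CXCL8 and CREB5, both among the overshot genes, held no match to that κB motif in this window, which says only that these letters are not there. Both held the AP-1 motif TGANTCA, which reads as the same motif on both strands, and its match is in capitals below. It occurred in 9 of the 38 fallen genes (23.7%), 6 of the 34 risen genes (17.6%), 49 of the 262 genes higher at day 21 without a called difference (18.7%) and 871 of all 11641 (7.48%). The 2 windows are shown for comparison with the chemokines above.
CXCL8, chr4:73740417-73740453, plus strand: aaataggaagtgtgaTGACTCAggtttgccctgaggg
CREB5, chr7:28686074-28686110, plus strand: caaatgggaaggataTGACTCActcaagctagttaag

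Inhibitors that close NF-κB signalling were also among the falls. Of 22 genes of the NF-κB subunit and feedback list, 4 fell and none rose, with a median difference of -0.58 (all genes: 0.297% fell, median 0.01). TNFAIP3 (A20), a ubiquitin-editing brake on the pathway, was at 7.92, 9.47 and 8.24 CPM in control and 71, 71 and 94.4 CPM in IL-1β cells at day 21 and at 8.01, 6.05 and 4.92 and 16.2, 14.2 and 10.2 CPM at day 30. All formerly exposed libraries still lay above the controls. The difference was -2.11 ± 0.30 (edgeR adjusted p = 0.000135) and the remaining day 30 response 1.09 (adjusted p = 0.00503). TNIP1, which binds A20, gave 645, 769 and 765 CPM with IL-1β against 228, 235 and 237 CPM at day 21 and 226, 252 and 176 against 195, 219.8 and 154 CPM at day 30, so the later groups overlapped. NFKBIZ, an atypical IκB protein that steers NF-κB to secondary targets, gave 40.3, 38.8 and 47.9 against 11.5, 10.9 and 13.2 CPM and then 12.6, 12.4 and 17.6 against 13.9, 16 and 17.1 CPM. Their differences were -1.44 ± 0.25 and -1.97 ± 0.34 (edgeR adjusted p = 0.00204 and 0.00181).

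ZC3H12A (Regnase-1), a nuclease that degrades inflammatory messengers, read 97.1, 91.8 and 151 CPM with IL-1β and 9.23, 10.3 and 12.5 CPM in control at day 21. At day 30 it read 13.3, 13.9 and 17.5 CPM in formerly exposed and 15.8, 4.76 and 19.2 CPM in control libraries, whose lowest value came from the library of 23.2% mitochondrial counts. The difference was -3.26 ± 0.62 (edgeR adjusted p = 0.00571). NFKBIA, which encodes the IκBα inhibitor, missed the threshold with a difference of -1.07 ± 0.27 (edgeR adjusted p = 0.0659) and its day 30 response was 0.82 (edgeR adjusted p = 0.0241), under the limit on size. NFKB2, which encodes an NF-κB subunit, had a difference of -0.15 ± 0.39 (adjusted p = 0.962), with 105, 98.9 and 66.5 CPM against 61.8, 30.6 and 37.5 CPM at day 30.

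Further products of the inflammatory response fell. IRAK2, a kinase of the IL-1 receptor complex, had a difference of -1.49 ± 0.34, TNFRSF9 (4-1BB), a costimulatory receptor, -2.09 ± 0.49, and IL32, a cytokine, -2.10 ± 0.43 (edgeR adjusted p = 0.0261, 0.0351 and 0.0107). IL32 moved in both arms, controls from 4.67, 5.73 and 5.66 CPM to 2.85, 2.32 and 1.87 CPM and IL-1β cells from 19.1, 20.9 and 19.4 CPM to 2.44, 2.21 and 1.45 CPM. IL6, a cytokine of the same list, was not called. It stood at 124, 145 and 179.8 CPM with IL-1β against 3.82, 4.10 and 1.79 CPM at day 21 and at 20.7, 23 and 7.11 against 2.80, 5.02 and 0.492 CPM at day 30. The formerly exposed libraries were still above all controls, and the difference was -2.81 ± 0.75 (edgeR adjusted p = 0.0916).

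On the acute phase and epithelial defence list, SAA2 fell and DEFB1 rose, of 7 tested (median 0.06). SAA2, a serum amyloid A protein, was at 0.171, 0.241 and 0.0797 CPM in control and 3.58, 3.14 and 5.58 CPM in IL-1β cells at day 21, and at 0.269, 0.643 and 0.295 and 0.339, 0.130 and 0.281 CPM at day 30. Day 30 values overlapped, and the difference was -5.16 ± 0.96 (edgeR adjusted p = 0.00434). SAA1, a near-identical paralog whose reads may be shared, was not called (-4.16 ± 1.48, adjusted p = 0.391). SERPINA1, the elastase inhibitor α1-antitrypsin, gave 4.34, 3.52 and 3.61 CPM against 0.342, 0.241 and 0.0398 CPM at day 21 and 0.543, 0.260 and 0.421 against 0.215, 0.129 and 0.393 CPM at day 30. Its difference was -3.69 ± 0.89 (edgeR adjusted p = 0.0426) and failed in 10 of the 12 fits that leave out a single library. LCN2, the iron-binding lipocalin, moved from 3.19 to 0.02 and missed the threshold (difference -3.17 ± 0.79, adjusted p = 0.0576).

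Metabolic and signalling genes outside the inflammatory lists were also among the falls. ABAT, the transaminase that breaks down GABA, was at 1.31, 1.03 and 1.19 CPM in control and 30.5, 32.9 and 27.3 CPM in IL-1β cells at day 21, and at 1.56, 0.643 and 2.07 and 2.44, 2.67 and 1.96 CPM at day 30. C15orf48, which encodes a small mitochondrial protein, gave 68.4, 65.9 and 146 CPM with IL-1β against 2.62, 2.71 and 3.27 CPM and later 5.29, 6.11 and 5.10 against 2.53, 4.63 and 1.13 CPM. Formerly exposed libraries stayed above all controls at day 30 for C15orf48 and overlapped them for ABAT, and neither day 30 response passed the test (edgeR adjusted p = 0.403 for C15orf48 and 0.57 for ABAT). The difference was -4.03 ± 0.42 for ABAT (edgeR adjusted p = 9.29e-07) and -3.93 ± 0.61 for C15orf48 (edgeR adjusted p = 0.000579). GPX3, a secreted glutathione peroxidase, BMPER, a secreted BMP-binding protein, and ROS1, a receptor tyrosine kinase, returned with differences of -2.90, -2.62 and -2.46. A returned gene listed only as ENSG00000112096, with no matched symbol, fell by 2.34 on the log2 scale. Whether it belongs to one of the lists, an inflammatory one included, could not be told by symbol.

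**Figure D3:**
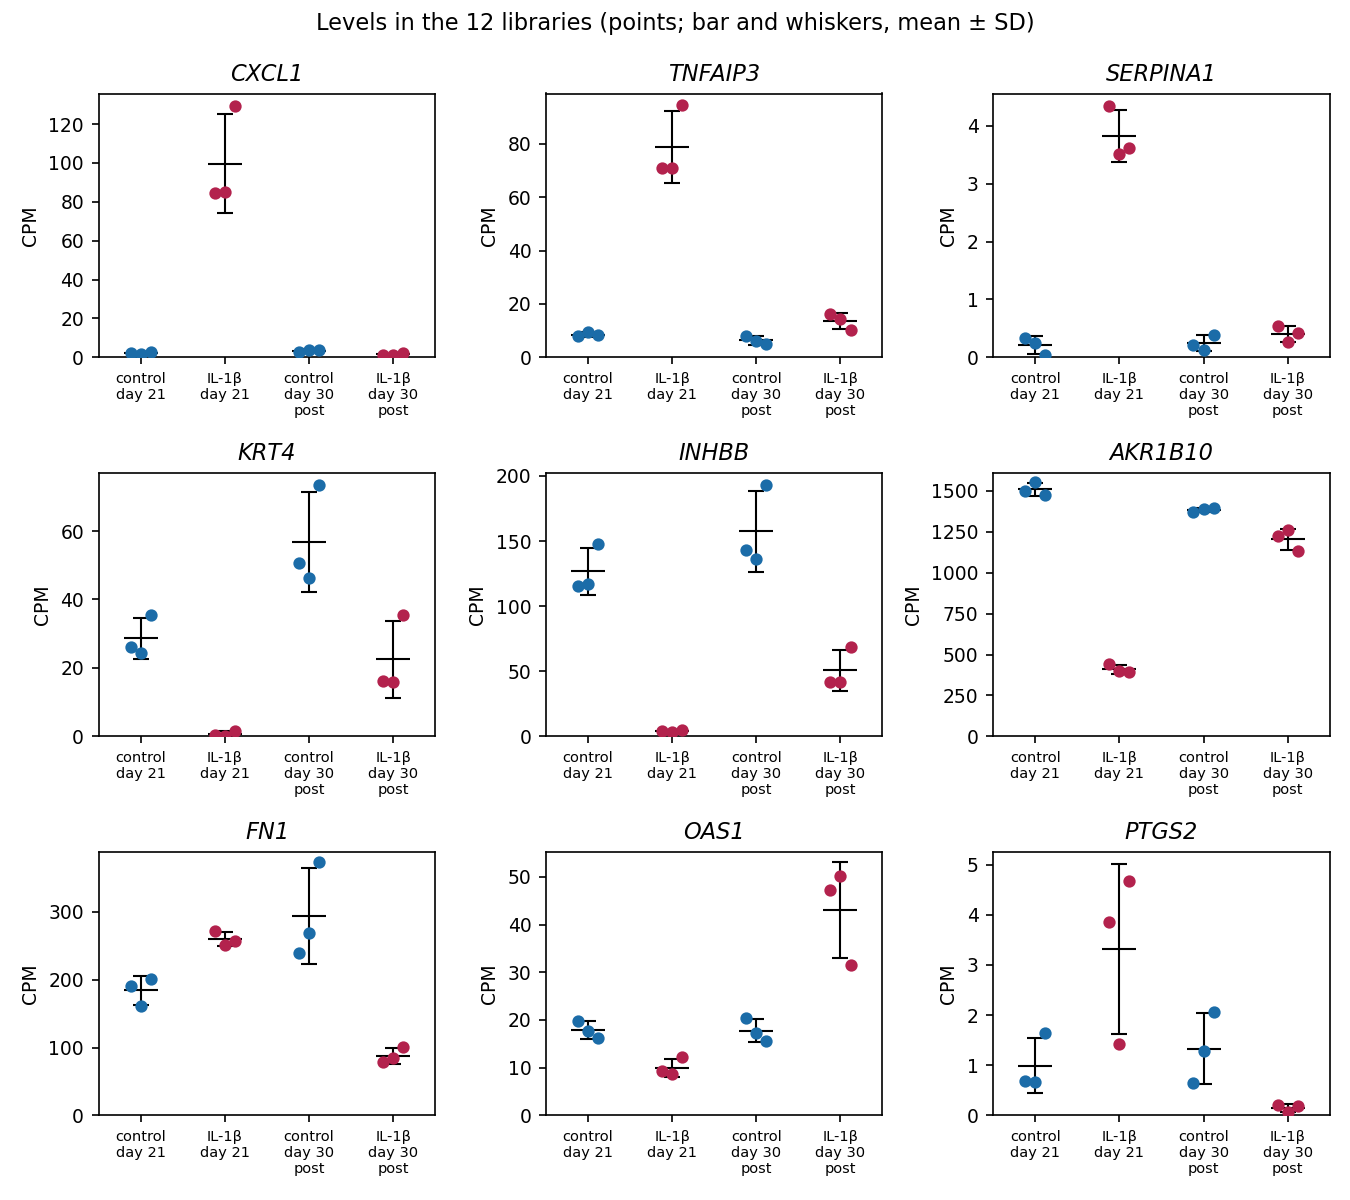
CPM (vertical, linear, each panel on its own scale) of 9 genes in the 12 libraries, 3 points a group with the mean and SD as a bar and whiskers; controls are blue and IL-1β or formerly exposed cells are red. CXCL1, TNFAIP3 and SERPINA1 were high in IL-1β cells at day 21, KRT4, INHBB and AKR1B10 were low there, and FN1, OAS1 and PTGS2 departed from control at day 30 posttreatment.

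KRT4 and DEFB1 had large rises. None of the 26 genes on the list of epithelial junctions and keratins, which holds neither, was called (median 0.21). With 0.626% called over all genes, that absence says little. KRT4, a keratin of stratified epithelia, was at 26, 24.5 and 35.4 CPM in control and 0.272, 0.0749 and 1.60 CPM in IL-1β cells at day 21, and at 50.8, 46.2 and 73.4 and 16.3, 15.9 and 35.5 CPM at day 30. Formerly exposed cells remained below all controls at day 30 without passing the test (adjusted p = 0.262), and the difference was 3.95 ± 0.74 (edgeR adjusted p = 0.00451). DEFB1, a constitutive epithelial defensin, read 16.6, 19.1 and 17.1 CPM in control and 0.217, 0 and 0.205 CPM with IL-1β, then 29.6, 12 and 39.4 and 3.19, 3.90 and 5.85 CPM. It rose by 4.10 ± 0.91 (edgeR adjusted p = 0.0234) yet kept a day 30 response of -2.65 (adjusted p = 0.00759). SCEL (sciellin, of the cornified envelope), CXADR, a junctional adhesion protein, and INHBB, the βB chain of activin and inhibin, partly returned too, with differences of 2.80, 1.42 and 3.34. INHBB was at 3.80, 3.22 and 4.97 CPM against 116, 117 and 148 CPM at day 21 and 41.4, 41.9 and 68.6 against 143, 136 and 193 CPM at day 30, separate at both collections (day 30 response -1.64, edgeR adjusted p = 1.29e-05).

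Of 17 coagulation genes tested, FGA, FGB and FGL1 rose and SERPINA1 fell, with a list median of 0.27 (all genes: 0.328% rose, 0.297% fell, median 0.01). FGB, the fibrinogen β chain, had 3 or fewer counts in each IL-1β library of day 21 and 9.12, 10.4 and 9.32 CPM in control, so its level was at least 54.6-fold lower, taking 3 counts per library as the floor. At day 30 it was at 2.31, 3.38 and 2.71 CPM in formerly exposed cells against 13.5, 34.6 and 12.5 CPM in control, again without overlap. FGA, the α chain, gave 0.434, 0.225 and 0.821 against 13, 13.2 and 16.1 CPM and then 8.49, 8.52 and 12.8 against 26.7, 40.9 and 35 CPM. FGL1, a fibrinogen-like hepatokine, gave 0.217, 0.150 and 0.246 against 7.01, 6.58 and 8.84 CPM and then 1.76, 2.60 and 7.39 against 8.12, 8.88 and 14.6 CPM. The differences were 3.55 ± 0.80, 2.95 ± 0.64 and 3.69 ± 0.72 (edgeR adjusted p = 0.0249, 0.0197 and 0.00679), and FGA and FGB were still below control at day 30 (responses -1.78 and -2.83, adjusted p = 0.0233 and 0.000752). C5, the complement component, rose by 2.41 ± 0.54 (adjusted p = 0.0224), and C3 was not called (-1.14 ± 0.35, adjusted p = 0.195).

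CDKN1C and RTN4RL2 returned from below. CDKN1C (p57), an inhibitor of cyclin-dependent kinases, was at 1.65, 1.75 and 2.31 CPM in control and 0.109, 0.150 and 0.164 CPM with IL-1β at day 21, and at 2.85, 1.54 and 3.44 and 2.44, 1.69 and 2.85 CPM at day 30, where the groups overlapped. Its difference was 3.48 ± 0.65 (edgeR adjusted p = 0.00434). None of 29 cell cycle genes was called (median 0.05), which says little with 0.626% called over all tested genes. RTN4RL2, a Nogo-type receptor, read 3.48, 3.22 and 6.69 CPM against 66.6, 75.8 and 102 CPM at day 21 and 73.9, 78 and 102 against 131, 35.9 and 126 CPM at day 30, where the lowest control was the library of 23.2% mitochondrial counts. Its difference was 3.96 ± 0.67 (edgeR adjusted p = 0.00166). C1orf116, known as a steroid-responsive gene, rose by 3.09 ± 0.46 from 0.434, 0.374 and 0.534 CPM to 4.48, 5.66 and 4.68 CPM (adjusted p = 0.000261).

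AKR1B10, an aldo-keto reductase of the NRF2 programme, was at 1499, 1553 and 1473 CPM in control and 442, 397 and 391 CPM in IL-1β cells at day 21, and at 1372, 1386 and 1395 and 1223, 1259 and 1133 CPM at day 30. IL-1β cells had come close to control but all 3 libraries still lay below it, and the difference was 1.68 ± 0.24 (edgeR adjusted p = 0.000143). AKR1C2 also rose, by 1.51 ± 0.36 (adjusted p = 0.0357). Its paralogs AKR1C1 and AKR1C3, which may share reads with it, had differences of 0.91 and 0.99 and were not called. These 2 calls came from 24 tested genes of the NRF2 and detoxification list, whose median was 0.37 (all genes: 0.328% rose, median 0.01). SLC2A3, the glucose transporter GLUT3, rose by 2.10 ± 0.39 from 24.8, 22.5 and 33.2 CPM to 108, 107 and 152 CPM, below controls of 244, 214 and 283 CPM. SLC2A14, its near-identical neighbour, rose by 2.14, and the same holds for the paralogs CNTNAP3 and CNTNAP3B (1.57 and 1.37), so the members of each pair cannot be counted as separate events. LINC02532, a long noncoding RNA, rose by 3.21, CPLX2 (complexin, of vesicle fusion) rose by 3.01, LGR4 (an R-spondin receptor) by 1.10, NR5A2 (a nuclear receptor) by 1.84 and GFRA1 (a GDNF receptor subunit) by 1.82.

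For 9 genes the response ended beyond the control level of day 30. These were CXCL8, CXCL1, CREB5, FLG-AS1, COL1A1 and PTHLH, higher at day 21 and lower at day 30, and DMTN, H19 and ENSG00000232324 in the opposite order. Controls moved too, by 0.92 (log2) for CXCL8, 0.59 for CXCL1, 1.23 for COL1A1 and -1.03 for ENSG00000232324, but by -0.03 for CREB5 and 0.0007 for DMTN. Formerly exposed cells at day 30 averaged 0.680 CPM of CXCL8, near the 0.697 CPM of day 21 controls, against 1.42 CPM in day 30 controls. Day 30 responses ran from -1.16 to 0.84, and 0 of the 9 passed the test by edgeR's quasi-likelihood fit without a replicate block, CXCL1 passed with one, and the unadjusted p was under 0.05 for CXCL1, CREB5, COL1A1, DMTN, H19 and ENSG00000232324. Across all 817 genes called at day 21 (4.26% of those tested), 301 were within 0.5 of control at day 30, 499 were more than 0.5 away on the same side and 17 on the opposite side, of which 0 passed without a replicate block. Of the 817, 6 had an unadjusted p under 0.05 for a response opposite in sign at day 30, and DESeq2 and edgeR's likelihood ratio test each called 1.

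H19 had the largest difference among the overshot genes that IL-1β lowered. It is an imprinted noncoding RNA, and like the imprinted CDKN1C it is read from the minus strand near the end of chromosome 11 (GRCh37 chr11:2016396-2025782 and chr11:2904443-2907005). H19 was at 1.88, 2.11 and 1.35 CPM in control and 0.0543, 0 and 0.205 CPM in IL-1β cells at day 21, a total of 6 counts, and at 2.80, 2.44 and 2.90 and 3.60, 4.55 and 6.17 CPM at day 30. All formerly exposed libraries lay above all controls at day 30, the reverse of day 21. The difference was 4.81 ± 0.65 (edgeR adjusted p = 7.59e-05), and the day 30 response of 0.81 missed the threshold (adjusted p = 0.505).

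CREB5, a transcription factor of the CREB family, was at 3.87, 3.44 and 3.62 CPM in control and 21.9, 26.1 and 11.5 CPM in IL-1β cells at day 21, and at 3.33, 4.63 and 2.90 and 1.49, 2.02 and 1.59 CPM at day 30, with no overlap at either. Its difference was -3.50 ± 0.42 (edgeR adjusted p = 1.08e-05) and its day 30 response -1.07 (adjusted p = 0.0894). COL1A1, the collagen I chain, gave 3.04, 2.02 and 2.22 against 0.798, 1.21 and 1.08 CPM and then 0.950, 1.11 and 1.54 against 3.44, 2.32 and 1.48 CPM. Here the control arm moved by 1.23 and the IL-1β arm by -1.0, and the difference was -2.22 ± 0.41 (adjusted p = 0.00406). COL1A1 is a fibroblast marker too, and COL3A1, LUM and THY1, markers of the same list, had 3 or fewer counts in every library. The summed level of the 8 fibroblast markers, COL1A1 included, was scaled to the library total, unlike the COL1A1 values above. It ran from 1.23 to 1.65 CPM in control and 2.34 to 3.74 CPM in IL-1β cells at day 21. At day 30 it ran from 2.26 to 4.80 and 1.54 to 2.21 CPM, and its part in the result was not tested. DMTN, an actin-bundling protein, rose from 6.08, 7.26 and 7.22 CPM to 22.5, 22.6 and 23.8 CPM against 15.9, 8.49 and 16.7 CPM in control, above all controls.

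PTGS2, the inducible cyclooxygenase that starts prostaglandin synthesis, also crossed the control level but belonged to none of these classes. It read 0.684, 0.664 and 1.63 CPM in control and 3.86, 1.42 and 4.68 CPM in IL-1β cells at day 21, and 0.645, 1.29 and 2.07 and 0.204, 0.0650 and 0.187 CPM at day 30, where formerly exposed cells had 8 counts in all. IL-1β and control libraries overlapped at day 21 and did not at day 30. The response went from 1.71 to -3.06 and the difference was -4.77 ± 1.05 (edgeR adjusted p = 0.0209), but neither response passed by itself (adjusted p = 0.116 and 0.0793). With libraries paired by number in a block within each collection, the day 30 response of PTGS2 was -3.06 (edgeR adjusted p = 0.00163) and that of CXCL1 -1.17 (edgeR adjusted p = 0.00854) in that fit, so both then counted as reversed. Leaving out a single library lost the difference for PTGS2 in 7 of 12 cases. PTGS2 was the 1 called gene of 13 tested on the prostaglandin list.

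The 6 genes whose response arose after withdrawal were FN1, OAS1, NPC1, NNMT, RASL11A and OLR1. FN1, fibronectin, a matrix glycoprotein used as a mesenchymal marker, stood at 191, 161 and 201 CPM in control and 272, 252 and 257 CPM in IL-1β cells at day 21. At day 30 it stood at 239, 269 and 374 CPM in control and 78.2, 85.2 and 101 CPM in formerly exposed cells. IL-1β libraries were above controls at day 21 and below them at day 30, with no overlap either time. Only the second difference passed, with responses of 0.50 (adjusted p = 0.409) and -1.74 (adjusted p = 0.000291) and a difference of -2.23 ± 0.36 (edgeR adjusted p = 0.000946).

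OAS1, an interferon-induced sensor of double-stranded RNA, was at 19.9, 17.7 and 16.2 CPM in control and 9.29, 8.61 and 12.1 CPM in IL-1β cells at day 21, and at 20.4, 17.4 and 15.5 and 47.2, 50.3 and 31.5 CPM at day 30. Its groups were separate both times in opposite order. The day 21 response of -0.84 had an adjusted p of 0.00451 in edgeR but was under the limit on size, and the day 30 response was 1.27 (adjusted p = 0.000291). The difference was 2.11 ± 0.27 (edgeR adjusted p = 3.68e-05), and OAS1 was the only 1 called of 29 interferon-stimulated genes, whose median difference was 0.14.

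NPC1, the lysosomal cholesterol exporter, read 468, 411 and 443 CPM in formerly exposed cells against 247, 125 and 171 CPM in control at day 30, and 186, 164 and 197 against 238, 219.6 and 191 CPM at day 21. NNMT, nicotinamide N-methyltransferase, read 70.2, 79.4 and 70.2 against 28.8, 26.6 and 18.1 CPM at day 30 and 36.4, 36.5 and 48.4 against 30.1, 34.1 and 24.9 CPM at day 21. For both genes the formerly exposed libraries lay above all controls at day 30. RASL11A, a small GTPase, read 3.20, 4.72 and 5.54 CPM with IL-1β against 8.03, 6.88 and 6.97 CPM at day 21 and 13.9, 11 and 12.4 against 4.46, 1.67 and 3.79 CPM at day 30, the lowest control being the second library, as for NPC1. OLR1, a receptor for oxidised lipoprotein, read 0.652, 1.72 and 1.68 against 0.969, 0.664 and 0.797 CPM and then 0.407, 0.520 and 0.514 against 1.88, 2.70 and 1.13 CPM. RASL11A and OLR1 had differences of 2.56 ± 0.51 and -2.63 ± 0.60 (edgeR adjusted p = 0.00741 and 0.027). The differences for NPC1 and NNMT were 1.53 ± 0.31 and 1.13 ± 0.28 (edgeR adjusted p = 0.00847 and 0.0496). LAMA3, a laminin chain whose gene lies 102947 bases from NPC1 on chromosome 18, rose by 1.31 ± 0.31 (adjusted p = 0.0342), with 263, 259 and 257 CPM in formerly exposed cells and 164, 153 and 139.8 CPM in control at day 30.

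The earlier collections after withdrawal show the course of these responses. FN1 had responses of -0.49, -1.07 and -1.74 at days 6, 15 and 30 posttreatment, OAS1 of 0.31, 0.89 and 1.27, NPC1 of 0.71, 0.96 and 1.28, and NNMT of 0.61, 1.04 and 1.58. By day 15 posttreatment the adjusted p was 0.0261, 0.0105, 0.0187 and 0.00406 for FN1, OAS1, NPC1 and NNMT (edgeR quasi-likelihood), with FN1 and NNMT also past the limit on size. Whether one collection differed from the next was not tested. Among the returned genes, 17 of 50 lay within 0.5 of control at day 6 posttreatment and 36 of 50 at day 15. None of the 50 passed both thresholds at day 15 posttreatment and 16 of the 37 partly returned genes did, against 183 of all 19180 tested. With so low a share over all genes, none of 50 says little, and the classes were set by the day 30 response. Genes that fell reached this band earlier than genes that rose, with 12 of 27 against 5 of 23 at day 6, a difference that was not tested.

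**Figure D4:**
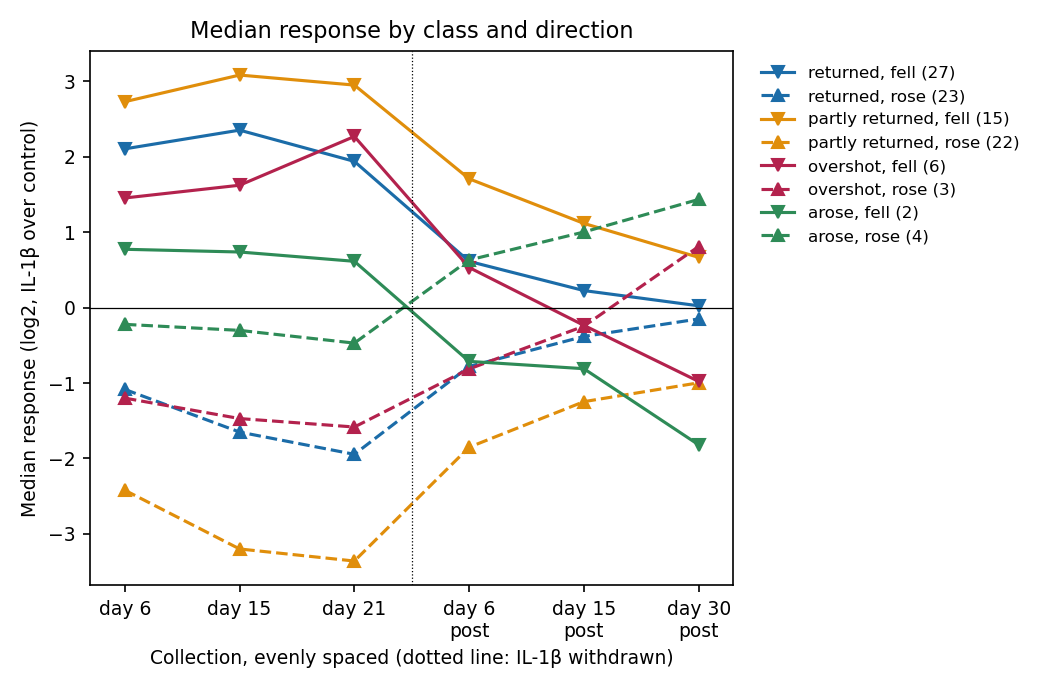
Median response (vertical, log2 of IL-1β over control) at the 6 collections (horizontal, evenly spaced and not to a scale of days) for each class and direction, with the number of genes in brackets and no error drawn. Lines of the returned classes approach 0 after withdrawal (0.02 for falls and -0.15 for rises at day 30), and those of genes whose response arose move away from it.

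Libraries of the day 15 collections, whose values do not enter the contrast of day 30 with day 21 beyond the shared estimate of spread, gave the same contrast at a shorter interval. The response at day 15 posttreatment minus the response at day 15 of exposure had the same sign for 119 of the 120 genes, against 14492 of all 19180 (75.56%), and passed both thresholds in that direction for 42 (35%), against 57 of all 19180 (0.297%). It had an unadjusted p under 0.05 for 100 of the 120 and for 1328 of all 19180. CXCL8, CXCL1, CXCL2, CXCL3, CXCL5 and CCL20 passed there with differences of -5.84, -5.50, -3.22, -3.82, -2.72 and -2.85 (edgeR adjusted p = 1.64e-06, 4.33e-09, 1.27e-06, 7.13e-06, 1.98e-05 and 0.0349). H19 (3.40), INHBB (2.24), KRT4 (4.26), TNFAIP3 (-2.24) and OAS1 (1.67) passed as well. PTGS2 had a like value (-4.10) without passing (adjusted p = 0.0855), and FN1 had -1.27 (adjusted p = 0.17). KCNK1, a potassium channel that fell by 1.62 at day 30, was the 1 gene of opposite sign, at 0.16.

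**Figure D5:**
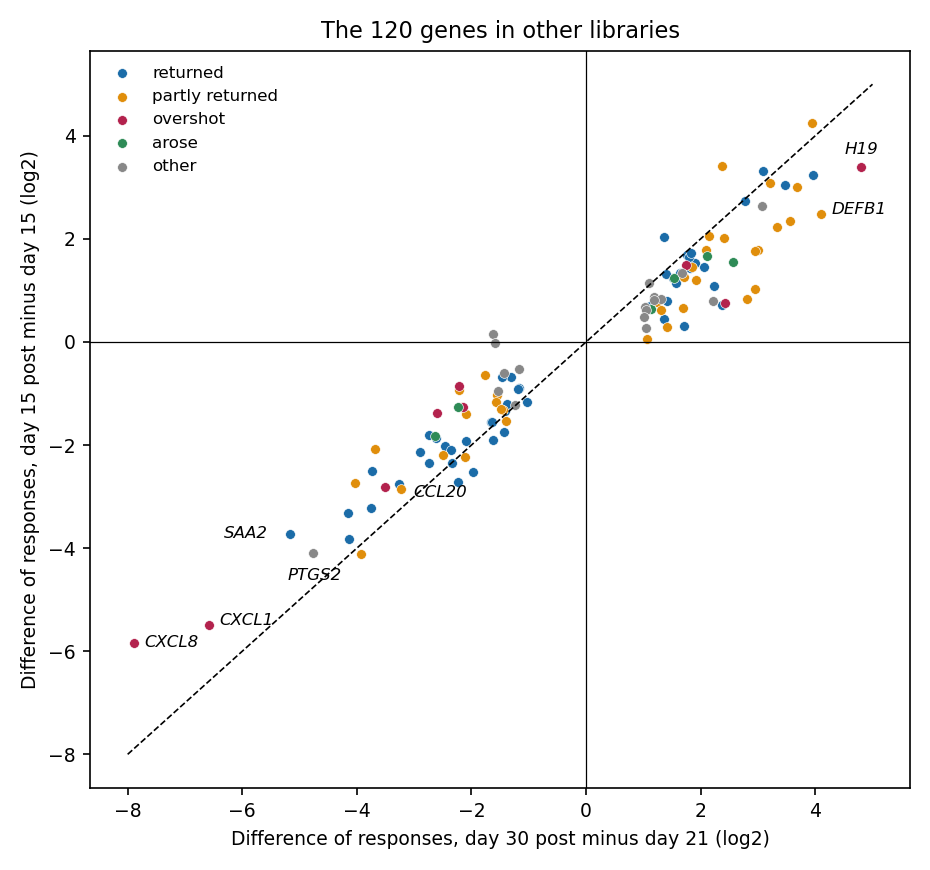
Difference of responses at day 30 after withdrawal against day 21 (horizontal, log2) and at day 15 after withdrawal against day 15 of exposure (vertical, log2) for the 120 genes, coloured by class; the dashed line marks equality. Points lie in the lower left or upper right of the plot for 119 of the 120, and KCNK1 is the exception at 0.16.

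Calls among mesenchymal and junction genes are given beside the 0.626% of all tested genes that changed. Of 21 mesenchymal markers, TGFBI and FN1 fell and none rose, with a median of -0.49 (all genes: 0.297% fell, median 0.01). TGFBI, an extracellular adhesion protein, read 2769.8, 2614 and 2905 CPM against 1032, 1004 and 1066 CPM at day 21 and 1024, 1020.3 and 1037 against 1092, 951 and 942 CPM at day 30, a return with overlap, and a difference of -1.37 ± 0.18 (edgeR adjusted p = 3.80e-05). None of 10 EMT transcription factors was called, and none of the 26 listed junction and keratin genes, a list without KRT4 and CXADR. With 0.626% called over all genes, none of so few says little. SNAI2 (SLUG), a repressor of E-cadherin, was at 2.96, 2.59 and 1.59 CPM in control and 22.4, 31.3 and 13.1 CPM in IL-1β cells at day 21, and at 1.99, 3.86 and 1.13 and 3.53, 4.94 and 3.04 CPM at day 30, where the groups overlapped. Its difference was -2.43 ± 0.68 (edgeR adjusted p = 0.122). CDH1, E-cadherin, gave 34.1, 27.5 and 63.1 against 192, 185 and 213 CPM and then 138, 151 and 230.2 against 252, 248 and 291 CPM, and its difference was 1.63 ± 0.41 (edgeR adjusted p = 0.0641). All formerly exposed CDH1 libraries lay below the controls at day 30.

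When libraries were paired by number in a block within each collection, both SNAI2 (-2.32, edgeR adjusted p = 0.0138) and CDH1 (1.69, adjusted p = 0.00132) were called, and JUN, an AP-1 subunit, was called too (-1.32, adjusted p = 0.00294) against -1.27 and 0.361 without the block. Over 27 alternative fits, only 3 of them with a replicate block, SNAI2 was called in 8, CDH1 in 7 and JUN in 2. ZEB2, FOSL1, HDAC9, CD274 and VIM were called in no setting tried. Their differences were -1.30, -1.21, -1.22, -1.19 and -0.44 (edgeR adjusted p = 0.698, 0.955, 0.772, 0.947 and 0.955). FOSL1, which encodes the AP-1 subunit FRA1, was at 66.8, 65.7 and 16.7 CPM against 25.2, 21.5 and 9.54 CPM at day 30, with overlap, after 207, 328 and 121 against 38.4, 45.2 and 23.3 CPM at day 21. Among collagen and basement membrane genes, COL1A1 and LAMB3 fell and LAMA3 rose, of 26 tested. LAMB3, a chain of the same laminin as LAMA3, had 147, 108 and 185 CPM against 23.9, 21.1 and 21.7 CPM at day 21 and 37.2, 26.3 and 20.8 against 22.4, 12.6 and 21.5 CPM at day 30, with a difference of -2.16 ± 0.49 (adjusted p = 0.0254).

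Of the 32 gene lists examined, 17 held a changed gene. On a list were 35 of the 120 genes and 582 of all 19180 tested. Over all tested genes 0.626% changed. Single members changed on further lists, with C5 of 16 complement genes, LTBP1 of 28 TGF-β and BMP genes (-1.47), CDKN1C of 21 p53 targets and cell cycle inhibitors, TNFRSF9 of 19 apoptosis regulators, SLC2A3 of 26 glycolysis and hypoxia genes and KCNK1 of 10 solute carriers and channels. Lists were matched by symbol, so a called gene without one, such as ENSG00000112096, could not count on any list. Lists with no call among their matched members included the one for SOD2, metallothioneins and zinc transport, of which 8 of 12 members were matched and tested (median -1.18). That absence says nothing of its unmatched members, SOD2 included if its symbol was not matched. Others were 8 genes of the plasminogen system (-0.69), 25 sterol and fatty acid genes (0.45) and 19 integrins (-0.03). The same held for 30 chromatin modifiers (0.11) and 22 AP-1 and MAPK feedback genes (-0.31). Of the 118 changed genes with a position, 24 lay within 500000 bases of another, forming 21 pairs of which 18 moved in the same direction. The share over all tested genes was not counted, so these pairs are a description only. Of the 21 pairs, 10 are within the chemokine cluster, and FGB with FGA, NPC1 with LAMA3, GPX3 with TNIP1, CYP4F3 with CYP4F12 and PPP4R4 with SERPINA1 are others.

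Of the 50 called genes named by rule, 32 kept the call in each of the 12 fits that leave out a single library. Highest adjusted p values over those fits were 2.98e-09 for CXCL1, 1.64e-07 for CXCL8, 2e-07 for INHBB, 0.00536 for FN1, 0.000398 for OAS1 and 0.00088 for H19 (edgeR quasi-likelihood). IL32 and LGR4 lost it in 2 fits and C5 and FGA in 5. DEFB1, PTGS2, LTBP1, FGB, IRAK2, KCNK1, LAMB3, OLR1, TNFRSF9, AKR1C2, NNMT, PLIN4, SERPINA1 and LAMA3 lost it in 7 to 11 of the 12, with highest adjusted p values from 0.088 to 0.351. PLIN4, a lipid droplet protein, rose by 3.07 ± 0.76 (adjusted p = 0.0496), with 2.90, 0.643 and 1.72 CPM in control and 7.26, 6.11 and 8.18 CPM in formerly exposed cells at day 30, its lowest control being the library of 23.2% mitochondrial counts. Fits with a replicate block lost KCNK1, NNMT, COL1A1, OLR1 or SERPINA1 in at least 1 of 3 versions. When all libraries of over 10% mitochondrial counts were dropped from the 36, C5, FGA, KCNK1, LAMA3, NNMT, OLR1 and TNFRSF9 were not called.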

How the data were processed

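RNA of A549 cells was sequenced from 3 libraries, described in the labels as biological replicates, in each of 12 groups. Per the labels and the submitters' processing notes, libraries came from a stranded mRNA kit, and the notes name bcl2fastq 2.17, TopHat2 2.0.14, Bowtie2 2.2.5, HTSeq 0.6.1 and GRCh37. The authors deposited raw counts per Ensembl gene for each library, 63677 genes and 5 summary lines. The summary lines were left out (8.66% to 14.4% of reads without a feature and 2.65% to 4.18% ambiguous in the 12 libraries of the contrast). The strand setting of the counting is not given in the sources used here, so reads of overlapping genes on opposite strands cannot be assigned with certainty. How reads shared by near-identical genes were handled is likewise not given.

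Symbols were matched for 55665 genes, and positions come from GENCODE v44 lifted to GRCh37. Promoter sequences are RefSeq windows of GRCh38.p14, matched by symbol. Counts of all 36 libraries were scaled by TMM, filtered with filterByExpr by group and fitted together with edgeR 4.0.16 in R 4.3.3 (quasi-likelihood, 24 residual degrees of freedom), leaving 19180 genes. A gene was called at a Benjamini-Hochberg adjusted p under 0.05 and a fold over 2, the thresholds of the study. Differences of responses are interaction contrasts, and log2 values carry edgeR's default prior count. Printed CPM are scaled to the effective library size without a prior count. Exceptions are the cell type marker levels given with the library description and the summed fibroblast level, which are scaled to library totals. The floor is 3 counts in a library and covers counting error only. The edgeR test was also run on simulated counts with known changes.

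Same-numbered control and IL-1β libraries deviated together from their group means (r across genes of 0.197 to 0.259 at day 21 and 0.310 to 0.464 at day 30 posttreatment). Pairing by number was therefore used in alternative fits. The main fit, which gave the calls and classes, does not pair. Overlap and separation were likewise read across all 3 libraries of a group and not within pairs. Alternatives were other scalings, filters and tests (DESeq2 1.42.0 among them), the replicate number as a block, the 12 libraries alone, mitochondrial share, other limits and leaving out libraries.

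Named genes were the 12 largest falls and 12 largest rises with a symbol, a mean of at least 1 CPM and 1 sign in all 3 replicate numbers, the 6 overshot genes farthest from control, up to 4 called genes a list, the 6 returned genes of highest mean CPM, up to 6 genes whose response arose, and SNAI2, ZEB2, CDH1, VIM, FN1, CD274, FOSL1, JUN and HDAC9. Other genes named were chosen after their values were seen. The members and gene lists were chosen with earlier results of these data known.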

Additional observations from a re-analysis of the deposited data

Results flagged for a closer look

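The difference between the day 30 and day 21 responses, tested by the interaction contrast, passed for 120 genes. For the genes whose response arose after withdrawal, that test gave differences of -2.63 for OLR1, -2.23 for FN1, 1.13 for NNMT, 1.53 for NPC1, 2.11 for OAS1 and 2.56 for RASL11A on the log2 scale. Groups of 3 libraries were too small for a test of single outlying samples. OLR1 and NNMT lost the call when most single libraries were left out, in 9 and 10 of 12 fits.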

How the results depend on the processing

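Every one of the 120 differences that was tested kept its sign in every fit tried. With all 12 libraries and the same thresholds, the number of calls ranged from 84, with at least 10 counts required in every library, to 241. Scaling by total counts moved the median difference of all genes to 0.13 and gave 93 calls, 6 overshot genes and 4 control-arm calls. Requiring at least 10 counts gave 38 falls, 24 partly returned, 4 overshot and 398 calls in the IL-1β cells. DESeq2's Wald test gave 179 calls, with 95 falls, 56 partly returned, 1 reversed, 13 arisen and 10 in control cells, and at the day 15 collections 116 calls, 81 of them among its changed genes. The likelihood ratio test gave 14 overshot, 1 reversed, 17 arisen and 8 in control cells, and 124 day 15 calls, 67 of them among its changed genes. The 12 libraries alone gave 22 partly returned genes.

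With the replicate block as an additive term there were 158 calls, with 56 partly returned, 2 reversed, 12 arisen and 5 in control cells, and 96 day 15 calls, 72 of them shared. With the replicate block within each collection there were 241 calls, 111 falls, 130 rises, 100 returned, 76 partly returned, 18 overshot, 2 reversed and 17 arisen, and 176 day 15 calls, 117 of them shared. The 12 libraries alone with a replicate block gave 14 overshot and 2 reversed. Among named genes, pairing lost KCNK1, NNMT, COL1A1, OLR1 or SERPINA1 in at least 1 version, gained SNAI2, CDH1 and JUN, and changed no other call of a difference. Pairing also brought the day 30 responses of CXCL1 and PTGS2 past the threshold. SNAI2 and CDH1 were called in some fits without pairing too.

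With high mitochondrial share as a covariate there were 210 calls, 97 falls, 113 rises, 89 returned, 62 partly returned, 2 reversed, 17 arisen, 4 in control cells and 67 shared with day 15. Without those libraries there were 91 falls, 84 returned, 16 overshot and 14 calls in control cells. An adjusted p under 0.01 left 65 calls, 29 falls, 36 rises, 32 returned, 18 partly returned, 6 overshot and 4 arisen. A test against a fold of 1.5 left 49, with 24 falls, 25 rises, 24 returned, 15 partly returned, 6 overshot and 3 arisen. With a class limit of 0.25, 31 genes were returned and 18 overshot, and with a limit of 1, 78 were returned, 16 partly returned and 2 overshot. The cause of these shifts was not tested.

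Leaving out a library or a replicate number gave 32 to 108 calls, 17 to 51 falls, 15 to 62 rises, 13 to 48 returned, 8 to 34 partly returned, 5 to 13 overshot, 0 to 2 reversed, 1 to 11 arisen, 382 to 778 in IL-1β cells, 0 in control cells, 25 to 47 shared with day 15 and 45 to 77 at day 15. Without replicate 1, 2 or 3 in the 4 groups the calls were 32, 43 and 34, with fewer samples in each fit. Low counts limited PTGS2, H19 and FGB in the group where each was lowest.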
